A study of Mus musculus with 3 samples.

Results

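The comparison described here sets peritoneal cells of mice given 70 nmol of hexavalent chromium together with the phorbol ester TPA against cells of mice given TPA alone. It uses 2 of the 3 arrays of the series. The array at 35 nmol is quoted beside them as a further value and enters no count unless that is said. A gene was a member of the comparison when both arrays flagged its brightest probe as well above background in the scanner software, and neither flagged it as saturated or an outlier. This held for 12543 of 14269 genes with a probe above background on at least 1 of these arrays.

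All groups were male Swiss albino mice aged 8 weeks, 10 to a group, and every animal first received 125 µg of lipopolysaccharide into the peritoneum, which draws macrophages there. On day 4 the control animals received 100 ng TPA, and the treated animals received the same TPA with chromate at 35 or 70 nmol. The sample labels name the agent as Cr(VI), while the protocol gives the same amounts as potassium dichromate, K2Cr2O7. Peritoneal lavage followed 4 days after dosing, in a medium that held the growth factor GM-CSF. Each group has 1 array, and the labels do not settle whether its RNA came from 1 animal or from a pool, so the differences below are unreplicated and no test was possible. Levels are log2 signal, with 0 at the array's 75th percentile, and a difference is the 70 nmol level minus the control level unless another is named. Because each probe binds its target differently, levels are compared between arrays and not between genes.

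Chromate enters cells as an oxyanion through anion carriers and is reduced inside them, and TPA activates protein kinase C. The peritoneal cavity holds large resident macrophages, which depend on the transcription factor GATA6, and smaller macrophages that derive from blood monocytes. Macrophages of connective tissue around vessels carry another set of genes, among them Lyve1, Folr2 and Mrc1.

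The defining macrophage genes were present on both arrays. Of 14 such genes, 12 were measured and the other 2, Lyz2 and Marco, were saturated on at least 1 array. Csf1r, the receptor for the macrophage growth factor CSF1, lay at 6.13 in the control, 6.11 at 35 nmol and 6.17 at 70 nmol. Adgre1, which encodes the F4/80 antigen, lay at 7.67, 7.71 and 7.16 in the same order. The 12 genes had a median difference of 0.15, and their summed signal was 960.6 times the 75th percentile in the control and 972.5 times at 70 nmol. Aif1 was the only one at least 2-fold higher, with a difference of 1.05.

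Of the 12543 genes, 205 (1.63%) were called higher and 137 (1.09%) called lower at 70 nmol, which below always means a difference of at least 2-fold. The median difference of all genes was 0.04, the standard deviation across genes was 0.38, and 90% of genes lay between -0.51 and 0.62. Higher genes made up 59.9% of those past 2-fold. Scaling the arrays on spike-in RNA moved the median of all genes to -0.32 and that share to 17.9%, so the balance of higher and lower genes depends on the scaling, and lists are read below against the median of all genes. On the upper side Pcolce at 1.001 lay just inside the threshold and Mras at 0.9985 just outside it. On the lower side Cd55 at -1.004 lay just inside and Sema6d at -0.9905 just outside.

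**Figure D1:**
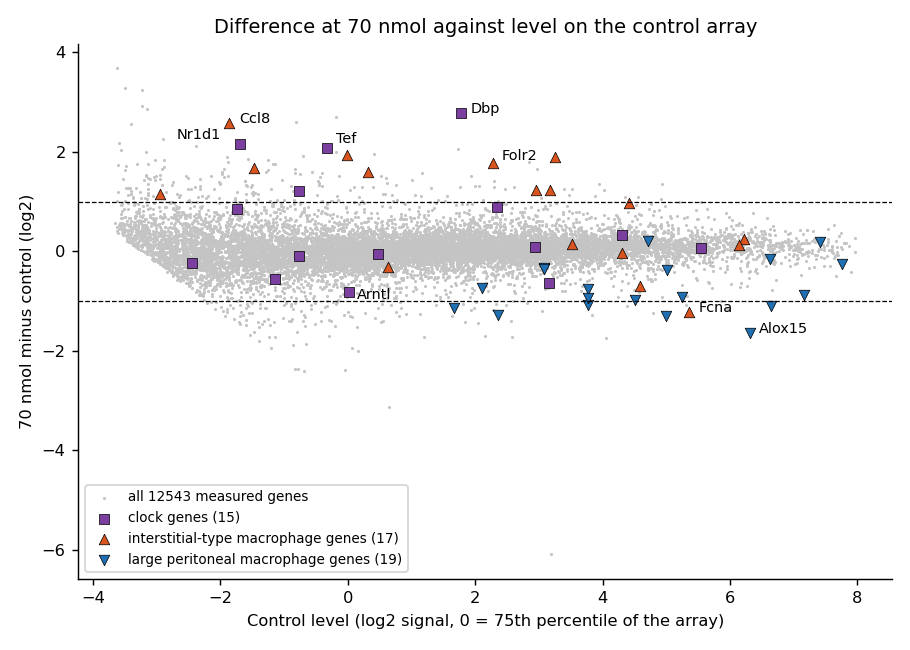
Difference between the 70 nmol and control arrays (log2, vertical) against the level on the control array (log2 signal, horizontal) for all 12543 measured genes in grey, with clock genes, interstitial-type macrophage genes and large peritoneal macrophage genes marked. Dashed lines mark 2-fold. Dbp stands highest among the marked genes at 2.79, and the large peritoneal macrophage genes lie mostly below 0, down to Alox15 at -1.65.

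Genes of the daily clock stood out first, since Dbp had the largest positive difference among the genes measured on both arrays that the naming rule selected. The core loop is driven by CLOCK and BMAL1, the product of Arntl, which bind E-boxes and turn on the Per, Cry and Nr1d genes. The PAR bZIP factors DBP and TEF lie downstream, bind D-boxes, and are opposed there by NFIL3. Of its 15 measured members 4 were called higher and 0 lower, with a median of 0.09. The list was therefore not higher as a whole.

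Promoters of Tef and Per1 are shown because they hold the E-box that CLOCK and BMAL1 bind and, in Per1, the D-box that DBP and TEF bind. Each run is the 250 bases before an annotated start, from RefSeq on build GRCm38.p6, 5′ to 3′ on the gene's strand, with the motifs in capitals. The E-box is CACGTG and the D-box TTATGCAA, searched on both strands. They cover chr15:81802423-81802672 and chr15:81811164-81811413 for the 2 starts of Tef, and chr11:69098699-69098948 for the upstream start of Per1, all on the plus strand. The E-box begins 127 and 138 bases before the start in Tef and 166 bases before it in Per1, and the D-box of Per1 begins 24 bases before it. The window of the downstream start of Per1, chr11:69099902-69100151, held neither motif and is not shown.

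Tef, upstream start: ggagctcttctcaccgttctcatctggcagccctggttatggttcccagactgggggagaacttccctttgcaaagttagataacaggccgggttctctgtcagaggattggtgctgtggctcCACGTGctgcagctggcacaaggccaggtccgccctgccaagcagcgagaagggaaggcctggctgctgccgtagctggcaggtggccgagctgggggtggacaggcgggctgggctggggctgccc

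Tef, downstream start: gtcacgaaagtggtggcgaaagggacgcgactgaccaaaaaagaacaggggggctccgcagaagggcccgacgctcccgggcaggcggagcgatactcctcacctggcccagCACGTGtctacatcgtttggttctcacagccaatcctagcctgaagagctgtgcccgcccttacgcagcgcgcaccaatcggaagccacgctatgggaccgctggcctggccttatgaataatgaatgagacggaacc

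Per1, upstream start: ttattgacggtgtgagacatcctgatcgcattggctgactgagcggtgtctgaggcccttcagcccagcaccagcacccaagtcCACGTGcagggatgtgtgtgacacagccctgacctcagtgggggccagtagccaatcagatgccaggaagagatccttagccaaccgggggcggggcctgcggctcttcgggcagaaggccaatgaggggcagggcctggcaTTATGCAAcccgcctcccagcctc

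Over all 32851 promoter windows of this length in the RefSeq table, 6.02% held CACGTG and 0.694% held TTATGCAA. By gene, 899 of 8983 measured genes with a window (10.0%) held CACGTG in at least 1 of their windows. The same held for 5 of 141 genes called higher (3.55%) and 4 of 88 called lower (4.55%). Of 18 clock genes with a window, 5 held the E-box (Tef, Bhlhe41, Per1, Ciart and Cry1) and 1 the D-box. The windows of Dbp, Nr1d1 and Nr1d2 held neither set of letters. A match describes the letters only.

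Dbp lay at 1.78 in the control, 4.06 at 35 nmol and 4.57 at 70 nmol. Tef, whose probe lies at chr15:81653753-81653812 on build mm8, lay at -0.33, 1.42 and 1.74. Both chromate arrays were above the control for these genes, and the array at 70 nmol was the highest. The differences at 70 nmol were 2.79 for Dbp and 2.08 for Tef. Nr1d1 and Nr1d2 encode REV-ERB repressors that shut off Arntl. Nr1d1 lay at -1.69, 0.09 and 0.47, a difference of 2.16, but another probe of Nr1d1 differed by -0.05. Nr1d2 lay at -0.76, 0.03 and 0.45, a difference of 1.21. Per1 and Cry2, repressors of CLOCK and BMAL1, differed by 0.89 and 0.84 and did not reach 2-fold.

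Some other members had negative differences short of 2-fold. Arntl was at 0.02 in the control, -0.66 at 35 nmol and -0.79 at 70 nmol, a difference of -0.81. Nfil3 was at 3.16, 2.65 and 2.53, a difference of -0.63, and another Nfil3 probe gave -0.76. Bhlhe41, a repressor that competes for E-boxes, differed by -0.56. Its paralogue Bhlhe40 differed by 0.09, Clock itself by -0.05 and the kinase genes Csnk1d and Csnk1e by 0.06 and 0.33. Usp2, a deubiquitinase gene with a daily rhythm, was above background at 70 nmol and not in the control, and was at least 2.55-fold higher. Per2 was left out of the counts because its brighter probe was above background at 70 nmol and not in the control, while its other probe differed by 0.10. Hlf, Per3, Ciart, Cry1 and Npas2 were above background on neither. The time of day at which each group was harvested is not given in the sources used here, so time of day and chromate dose cannot be told apart in these genes.

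**Figure D2:**
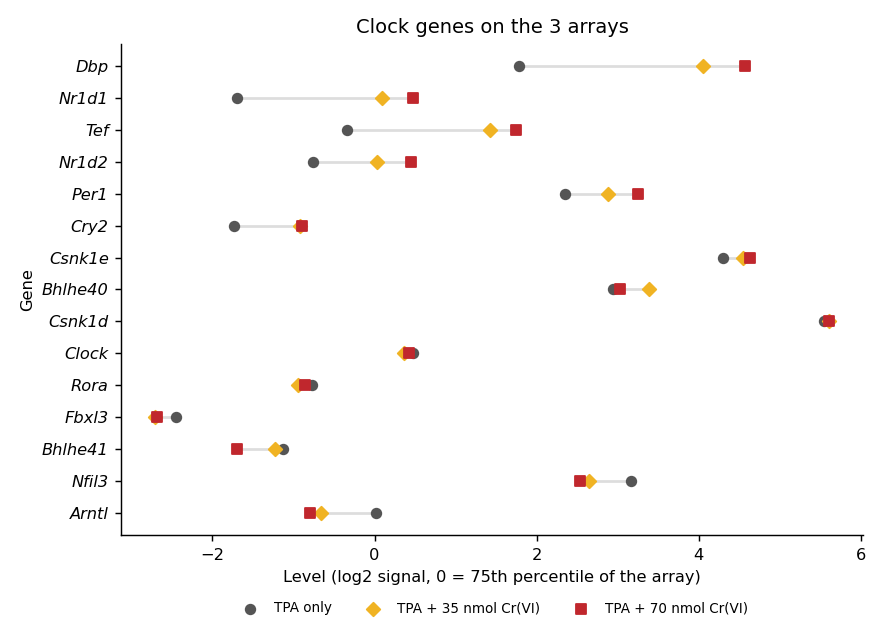
Levels (log2 signal, horizontal; 0 is the array's 75th percentile) of the 15 measured clock genes on the control, 35 nmol and 70 nmol arrays, 1 point an array. Dbp, Nr1d1, Tef and Nr1d2 lie to the right at both doses, while Nfil3 and Arntl lie to the left at both.

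Many genes of interstitial-type macrophages were called higher, and several of large resident peritoneal macrophages lower. In the interstitial-type list 9 of 17 measured genes were called higher and 1 lower, with a median difference of 1.15 against 0.04 for all genes. In the large peritoneal macrophage list 6 of 19 were called lower, none higher, and 17 had differences under that of the median gene, with a list median of -0.88. Over all measured genes 1.63% were called higher and 1.09% lower. Scaling on spike-in RNA gave 6 of 17 higher and 12 of 19 lower. At 35 nmol the medians were 0.03 and -0.22. The members of both lists were chosen with earlier results of these data known, so their counts and medians describe the chosen genes and are no independent support. In bulk RNA, fewer cells of a type and less RNA per cell cannot be told apart, and this holds for every cell type list here.

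Ccl8, a chemokine for monocytes and lymphocytes, lay at -1.86 in the control, -1.14 at 35 nmol and 0.73 at 70 nmol. Folr2, the folate receptor beta, lay at 2.27, 2.16 and 4.05. Cbr2, a carbonyl reductase, lay at 3.26, 3.01 and 5.16. The array at 70 nmol stood apart for Folr2 and Cbr2, which differed from the control by -0.11 and -0.25 at 35 nmol. The differences at 70 nmol were 2.58 for Ccl8, 1.78 for Folr2 and 1.90 for Cbr2. Gas6, a bridge between dying cells and the receptors Axl and Mertk, differed by 1.93. The mannose receptor Mrc1 differed by 1.59, the clotting factor subunit F13a1 by 1.24 and the transcription factor Maf by 1.23. The haemoglobin scavenger receptor Cd163 was dim, at -2.939, -3.045 and -1.79, a difference of 1.15. The lowest signal well above background in the control was -3.65. Lyve1, a hyaluronan receptor, lay at -1.47, -1.46 and 0.20, a difference of 1.67, but its other probe differed by -0.15. All 3 other Maf probes were higher, from 0.81 to 1.10.

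The list did not move as a whole. Pf4, Selenop and Pltp differed by 0.26, 0.13 and -0.03. Fcna, a ficolin that binds sugars on microbes, lay at 5.35, 4.52 and 4.13, and was the member at least 2-fold lower, with a difference of -1.23. Ednrb, an endothelin receptor, differed by -0.69.

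Among large peritoneal macrophage genes, Alox15, a lipoxygenase of arachidonic acid, lay at 6.31 in the control, 6.11 at 35 nmol and 4.66 at 70 nmol. Garnl3, a Rap GTPase activator relative, lay at 4.999, 4.683 and 3.697. Itga6, an integrin alpha chain, lay at 6.64, 6.53 and 5.53. For all 3 the control and 35 nmol arrays were near each other and the 70 nmol array lay below. The differences were -1.65, -1.30 and -1.11, and all other measured probes of Garnl3 and Itga6 were also lower, by 2-fold or more. Thbs1, Nt5e and Gata6 were the other members past 2-fold, at -1.29, -1.15 and -1.08. Gata6, the factor that defines these cells, had other probes from -1.02 to 0.56. Selp, F5, Serpinb2 and Padi4 differed by -0.98, -0.94, -0.91 and -0.88, short of 2-fold. Prg4 and Timd4 differed by -0.15 and -0.38, while F10 and Cd93 differed by 0.18 and 0.20. Icam2 and Cfb were saturated and not used.

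Genes of small peritoneal macrophages lay above the median of all genes for 13 of 14 members, with a median of 0.52. F13a1, Retnla and Vcan were called higher, at 1.24, 1.23 and 1.02, and none was with spike-in scaling. Cx3cr1 differed by 0.59 and Irf4, a factor of monocyte-derived cells, by 0.35. F13a1 belongs to both this list and the interstitial-type list, and Fn1 to both peritoneal lists.

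Markers of other cells moved in the same arrays. The fibroblast list had 7 of 12 measured genes called higher, or 5 of 12 with normexp background correction or spike-in scaling. Its summed signal was 26.1 in the control, 27.8 at 35 nmol and 50.3 at 70 nmol, in multiples of the 75th percentile. Thy1 and Postn, its 2 members under the median gene, differed by -0.13 and -0.07. The defining fibroblast genes Pdgfra and Lum were above background only at 70 nmol, and Dpt on neither array. Pdgfra and Lum lay there at -2.94 and -2.89, near that array's lowest signal well above background, -3.26. The mast cell list had 6 of 8 called lower, or 3 of 8 with normexp background correction, with summed signals of 35.4, 23.2 and 13.8. Of 19 B cell genes 17 had differences under that of the median gene, with a list median of -0.35 and summed signals of 443.4, 446.8 and 352.1. Of the B cell genes, Fcer2a, a low-affinity IgE receptor, was the member past 2-fold, at -1.02, and Cd79b and Ms4a1 differed by -0.34 and -0.39. Igh and Jchain, antibody genes outside this list, went the other way. Igh differed by 1.65, with 5 other probes from 0.09 to 2.03, and Jchain by 1.44, with 1.52 from another probe. The plasma cell list had 1 of 7 called higher and none lower, with 4 above and 3 under the median gene and a median of 0.18. The hepatocyte list had 5 of 8 measured genes called lower and 18 more above background in the control only, with a median of -1.87 and summed signals of 89.6, 125.2 and 55.5. The erythroid list had 2 of 6 called lower and all 6 under the median gene, with summed signals of 93.8, 16.6 and 53.6. Of 16 endothelial genes 6 were measured, and 2 of them, Flt1 and Lyve1, were called higher and none lower, with summed signals of 6.61, 8.60 and 10.6. Lyve1 belongs to this list and to the interstitial-type list, and Cdh5, Kdr and Tek were above background on neither array. The part of these cells in the macrophage lists was not tested.

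**Figure D3:**
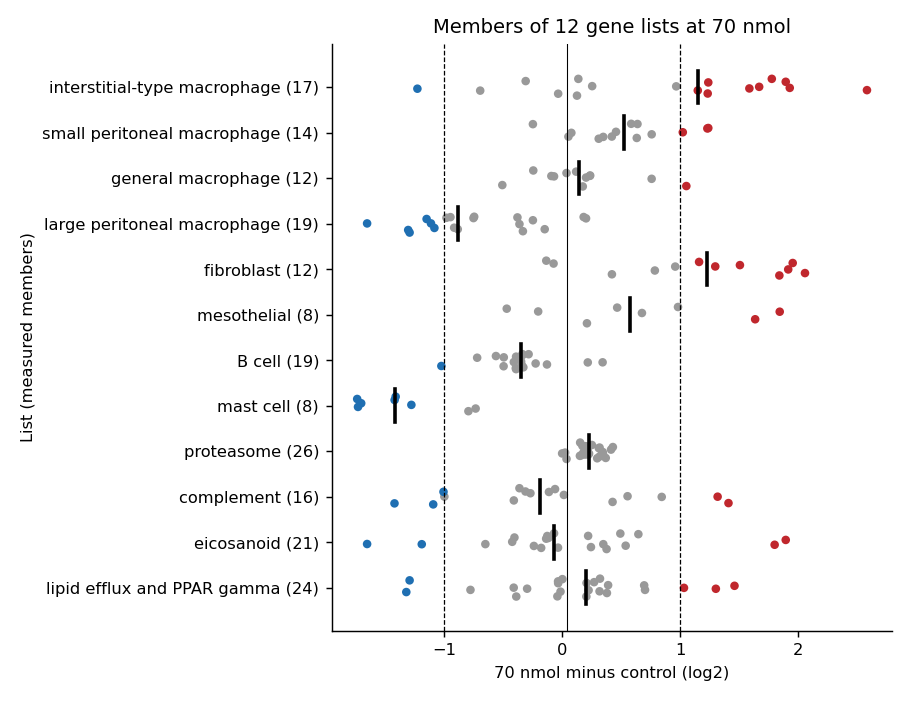
Differences at 70 nmol (log2, horizontal) of the measured members of 12 gene lists, 1 point a gene, with the list median as a thick bar, the median of all genes as a thin line and 2-fold as dashed lines. Red and blue points are at least 2-fold higher and lower. The interstitial-type list centres at 1.15, the large peritoneal macrophage list at -0.88 and the proteasome list within a narrow band at 0.23.

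Lectin receptor genes that lie near each other in the genome were among those called higher. Clec4b1, Clec4a2 and Clec4n, which encode C-type lectins of the dectin-2 cluster on chromosome 6, lie within 4 protein-coding genes in a row. Clec4b1 lay at 0.62 in the control, 1.25 at 35 nmol and 2.00 at 70 nmol. Clec4a2 lay at 2.47, 2.96 and 3.73, and Clec4n at -0.48, 0.21 and 0.65. All 3 followed the same order of arrays. Their differences were 1.38, 1.26 and 1.13, and another Clec4a2 probe gave 1.52. The related Clec4a1 and Clec4a3 differed by 0.70 and 0.61, whereas Clec4e and Clec4d, other receptors of this family, differed by 0.24 and 0.09. These probes may bind more than 1 of the close relatives in this family. Over the 17 measured C-type lectin genes, 4 were called higher and 1 lower, with a median of 0.24. The lower one was Cd209b, a SIGN-R1 receptor for microbial sugars, at 2.05, 2.48 and 0.60, a difference of -1.45 with -1.53 from another probe.

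Receptors of the Ms4a and Cd300 families also held genes called higher. In the list of Siglec, CD300, LILR and MS4A receptors, 3 of 20 were called higher and none lower, with a median of 0.45. Ms4a4d lay at -0.83, -0.68 and 0.81, and Ms4a4c at 1.17, 1.30 and 2.74, so that the 70 nmol array stood apart. Their differences were 1.65 and 1.57. Ms4a6b and Ms4a6c differed by 0.64 each, and Ms4a7 and Ms4a8a by -0.09 and 0.02. Cd300e, an activating receptor of monocytes, differed by 1.29 and Cd300lf, an inhibitory receptor, by 0.86. Cd300a and Cd300lb differed by 0.18 and -0.03. Siglec1 differed by 0.56, and the B cell receptors Cd22 and Siglecg by -0.39 and -0.38. Outside the lists, Cd300c2 was 1.35 higher, Slamf9 1.26, and Lair1, an inhibitory collagen receptor, 1.12, with its 2 other probes at 1.26 and 1.30. These last 3 genes were chosen after their values were seen.

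Genes for the uptake of dying cells went both ways. Of 20 measured members, 4 were called higher and 1 lower, with a median of 0.35, and 1 each way with normexp background correction. Gas6 was highest, at 1.93. Havcr2, the TIM-3 receptor, differed by 1.35, Stab1, a scavenger receptor, by 1.14 with 0.39 from another probe, and the integrin chain Itgb5 by 1.03. The receptors of GAS6, Axl and Mertk, differed by 0.46 and 0.20. Of the other bridging genes, Thbs1 was lower at -1.29, and Pros1 and Mfge8 differed by -0.60 and -0.55. Among Fc and scavenger receptors, 3 of 17 were at least 2-fold higher, including the oxidised LDL receptor Olr1 at 1.46, and Colec12, a collectin scavenger receptor, was lower at -1.09. Normexp background correction left 0 of these 17 past 2-fold, and spike-in scaling left 1 higher and 1 lower.

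Chemokines and their receptors went both ways. Over the 21 measured members of the chemokine list outside the CXCR3 group, 3 were called higher and 3 lower, with a median of 0.12. Ccl2 lay at -1.14 in the control, -0.28 at 35 nmol and 0.62 at 70 nmol, a difference of 1.76. Ccl4, an inflammatory chemokine, lay at 0.52, 1.23 and 2.04, a difference of 1.52. Ccl12 and Ccl7, close relatives of Ccl2, were above background at 70 nmol and not in the control, and were at least 10.6-fold and 4.03-fold higher. Their receptor gene Ccr2 differed by 0.76. Ccl5 and the neutrophil chemokines Cxcl1 and Cxcl2 differed by 0.02, -0.03 and -0.03.

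On the lower side, Cxcl12, the stromal ligand of CXCR4, lay at -0.97, -1.12 and -3.39 and was not well above background at 70 nmol, so that it was at least 4.86-fold lower. Ackr3, a scavenging receptor of CXCL12, lay at 1.84, 1.07 and 0.41, a difference of -1.43. Ccl24, an eotaxin, lay at 5.95, 6.50 and 4.78, a difference of -1.17 with -1.15 from another probe. Cxcl13, the B cell chemokine of peritoneal macrophages, differed by -0.81. Cxcr2, a neutrophil receptor, differed by -1.39, and the neutrophil list held 3 higher and 2 lower genes of 9. With normexp background correction 0 of these 9 were past 2-fold.

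**Figure D4:**
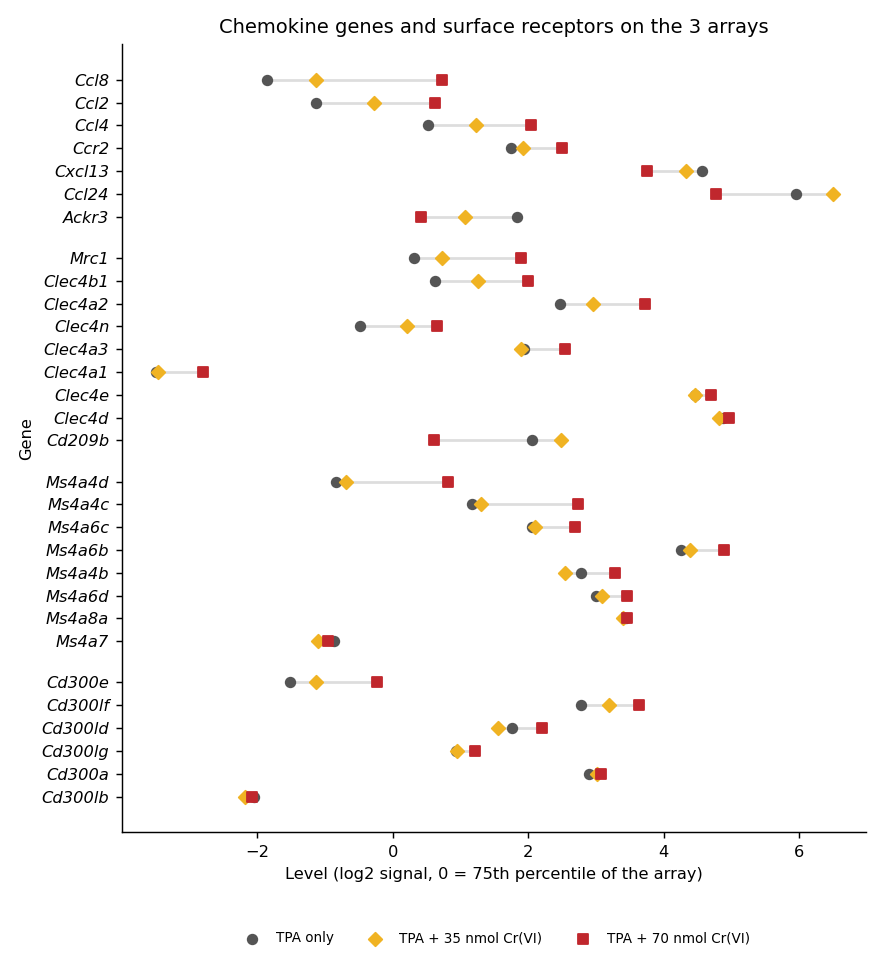
Levels (log2 signal, horizontal; 0 is the array's 75th percentile) of chemokine genes, C-type lectins, MS4A receptors and CD300 receptors, in 4 blocks from top to bottom, on the control, 35 nmol and 70 nmol arrays, 1 point an array. Ms4a4d and Ms4a4c stand apart at 70 nmol, while Ccl2 and Clec4n lie between at 35 nmol and Ccl24 and Cd209b lie lowest at 70 nmol.

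Lipid mediator and lipid handling genes went both ways. The eicosanoid list had 2 of 21 members called higher and 2 called lower, with a median of -0.07. Ltb4r1, the receptor for leukotriene B4, lay at 2.84 in the control, 3.70 at 35 nmol and 4.64 at 70 nmol, a difference of 1.80. Ptgis, which makes prostacyclin, lay at 2.29, 1.99 and 1.10, a difference of -1.19, and Alox15 was given above. The genes that make leukotrienes, Alox5, Alox5ap and Ltc4s, differed by -0.24, 0.22 and 0.38.

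In the list of LXR and PPAR gamma targets, 3 of 24 were called higher and 2 lower, with a median of 0.21, whereas normexp background correction left none higher and 1 lower. Pparg, the receptor itself, lay at -1.58, -1.33 and -0.28 and Nr1h3, which encodes LXR alpha, at 1.42, 1.60 and 2.45, differences of 1.30 and 1.03. Of their known targets, the cholesterol exporter Abcg1 differed by 0.70, Abca1 by 0.39 and Cd36 by 0.38. Fabp4, a target of PPAR gamma that carries fatty acids, lay at 3.84, 4.54 and 2.55, a difference of -1.29 with -1.35 from another probe, while the related Fabp3 differed by 1.49. Pdk4, a brake on pyruvate use, differed by -1.32 while the desaturase Fads1 lay at -0.66, -2.16 and -2.16. Dgat2, which makes triglycerides, differed by 1.64, with other probes from 0.01 to 1.61. Ch25h, which hydroxylates cholesterol, was above background at 70 nmol and not in the control, and was at least 6.17-fold higher. Cyp26a1, which degrades retinoic acid, lay at 0.65, -0.15 and -2.49, a difference of -3.13, and Aldh1a1, which makes it, lay at -2.01, -0.89 and -0.61, a difference of 1.40. The retinoid list as a whole had a median of -0.01 over 15 genes.

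Complement genes also went both ways. Of 16 measured, 2 were called higher and 3 lower, with a median of -0.19, and 1 each way with normexp background correction. Serping1, the C1 inhibitor, lay at -0.46 in the control, -0.47 at 35 nmol and 0.95 at 70 nmol, a difference of 1.41. C1s1, a protease of the classical pathway, differed by 1.32 with 0.91 from another probe. The C1q genes C1qa, C1qb and C1qc differed by -0.11, 0.02 and -0.06. C2 lay at 4.38, 3.34 and 3.29, a difference of -1.09, and Cd55, which breaks up convertases, differed by -1.00. Hc, which encodes C5, lay at -1.70, -0.97 and -3.12 and was lower at -1.42. Cfi, a complement regulator, lay at -2.86, -0.90 and -5.35 and was above background in the control and not at 70 nmol. Both genes were highest at 35 nmol and lowest at 70 nmol, as was albumin, Alb, of the hepatocyte list, at 3.19, 4.75 and -2.90, and the part of liver RNA in them was not tested.

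Adhesion and growth factor genes included several that fibroblasts also express, and the part of fibroblast RNA in them was not tested. Vcam1, an adhesion ligand of leukocyte integrins, lay at -3.47, -2.47 and -1.76, a difference of 1.72. Its control level was near that array's lowest signal well above background, -3.65, so the size of the difference is uncertain. Itga5, the fibronectin receptor chain, differed by 1.20. In all, 3 of 26 adhesion genes were called higher and 1, Itga6, lower. Normexp background correction gave 0 of these 26 higher and 2 lower, and spike-in scaling gave 1 higher and 3 lower. Among 12 measured growth factors and IGF binding proteins, 5 were called higher, with a median of 0.33. None was with normexp background correction, and 1 of 6 was when dim probes were filtered more strictly. The list median less that of all genes turned from 0.29 to -0.14 and -0.17 with the looser and the stricter filter. The 5 genes were Igfbp6 at 1.84, Igfbp5 at 1.64, Pdgfb at 1.48, Vegfc at 1.12 and Igfbp7 at 1.01. Igfbp6 and Igfbp5 also stand on the mesothelial list, where 2 of 8 were higher and the defining genes Wt1 and Upk3b were above background on neither array. Vegfa, the growth factor of blood vessels, was above background in the control, at -1.16, and at neither dose, and was at least 4.28-fold lower at 70 nmol. Egln3, an oxygen sensor, differed by -1.62, yet it was the only gene of the 30 in the glycolysis and oxygen sensing list past 2-fold. Flt1, a VEGF receptor, lay at -0.14, 1.33 and 1.37.

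Most signalling, stress and housekeeping lists held few genes past 2-fold. Of all measured genes 1.63% were called higher and 1.09% lower, so counts of 0 in lists of this size are near that share. The proteasome list had 24 of 26 members above the median of all genes, with a median of 0.23, and 0 of 26 past 2-fold. Its differences ran from 0.00092 for the lowest member to 0.43 for Psmb7. Psmb5, near the top of that range, lay at 3.67 in the control, 3.92 at 35 nmol and 4.09 at 70 nmol. Zinc finger genes of the Zfp family had 163 of 237 members under the median gene, with a family median of -0.10. Cytokine receptors lay above it for 22 of 27, with a median of 0.19. Cell division genes had a median of 0.06 over 36 members and none past 2-fold. In the heat shock list 2 of 21 were called higher, and none with spike-in scaling, namely Hspa1a, an inducible HSP70, at 1.27 with other probes from 0.88 to 1.32, and Cryab, a small heat shock protein, at 1.10. The antioxidant list had 0 of 27 past 2-fold and a median of 0.18. Slc7a11, the cystine carrier, was above background at 70 nmol and not in the control, and was at least 5.41-fold higher by its bound. It had no other measured probe and was not above background at 35 nmol. The scanner software's error of its difference was 1.45, against a median of 0.21 over measured genes. Of the 20 measured genes induced by glucocorticoids, Cd163, dim as given above, was at least 2-fold higher. Pdk4 and Lcn2 were at least 2-fold lower. With normexp background correction 0 of these 20 were past 2-fold. Fkbp5, a cochaperone of the glucocorticoid receptor, differed by 0.91, and Tsc22d3 by 0.69.

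Further genes with large differences follow. Wfdc21, which encodes a small protein of the WAP domain family, lay at -1.33, 0.11 and 1.43, a difference of 2.76. Csta2, a stefin that blocks cysteine proteases, lay at -0.19, 0.60 and 1.80, a difference of 1.99. Akr1b8, an aldo-keto reductase, differed by 1.60, Htra1, a secreted serine protease, by 1.58, and Enpp2, which makes lysophosphatidic acid, by 1.56. On the lower side, Orm3, an orosomucoid, differed by -2.01, Slc12a5, a potassium chloride carrier, by -1.73, and Wnt2 by -1.24. Wnt2 was bright on every array, at 4.80, 4.31 and 3.56. Cdkn2b, an inhibitor of cyclin-dependent kinases, lay at 0.92, 0.24 and -0.33, a difference of -1.25. Abhd3 and Cables1, whose genes neighbour Gata6, differed by -1.22 and -1.19, while Mib1 and Rbbp8, which lie between them, differed by -0.02 and 0.46. Cables1, Mib1 and Rbbp8 were chosen after their values were seen.

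Genes seen on 1 of the arrays were counted separately. Of these, 307 were above background at 70 nmol and not in the control, and 115 of them were at least 2-fold higher by their bound. The reverse held for 1296 genes, of which 153 were at least 2-fold lower by their bound. The share of probes well above background was 49.1% in the control, 45.9% at 35 nmol and 45.1% at 70 nmol, beside which these counts should be set.

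Different probes of a gene gave a measure of technical spread. Over 3082 genes with exactly 2 measured probes, the differences of the 2 probes lay apart by a median of 0.16. Over all measured genes, the scanner software's error of a difference had a median of 0.21. Of the 342 genes past 2-fold, 61 had another measured probe. In 53 of them every other probe had the same sign, and in 25 every other probe also reached 2-fold. The spread between animals is not contained in these values.

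**Figure D5:**
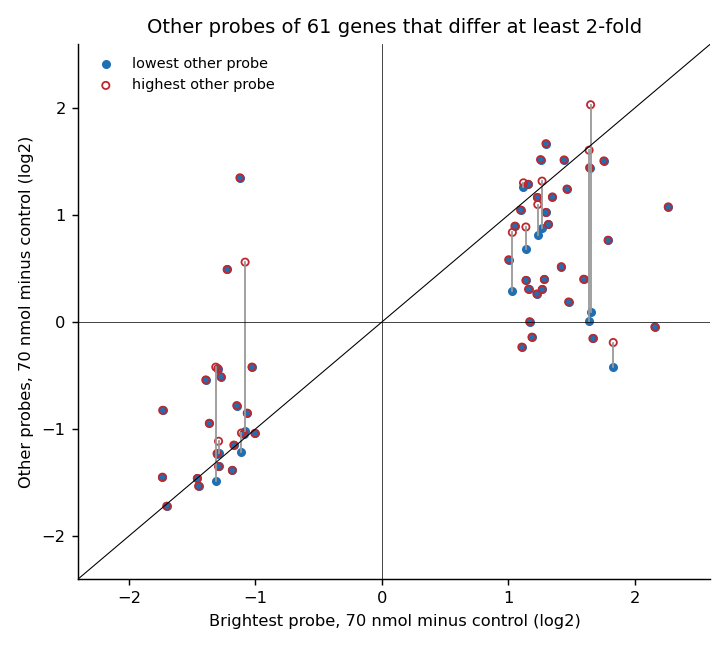
Difference at 70 nmol (log2) of a gene's brightest probe (horizontal) against that of its other probes (vertical), for the 61 genes past 2-fold that had another measured probe, where filled points are the lowest and open points the highest other probe and the diagonal marks equal values. Most points lie on the same side of 0 on both axes, with Nr1d1 and Lyve1 among the exceptions near 0 on the vertical axis.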

How the data were processed

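RNA of peritoneal macrophages was measured on 3 one-colour arrays. Per the file headers, the authors extracted the intensity of each spot with Agilent Feature Extraction 10.5.1.1, which subtracted background, and probe positions are on build mm8. The deposited value table holds log2 values equal to the log2 processed signal minus 1 constant an array, within 0.01 for at least 99.8% of probes well above background.

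Here log2 processed signals of 43379 non-control spots were scaled on each array's 75th percentile and averaged to 41174 probes. Probes were named by accession in the RefSeq table of GRCm38.p6 (24375), else by symbol (6301) or synonym (2426), and 8072 kept the file's name. Of the 12543 measured genes, 1382 had no symbol and are not named. For a bound, the bright signal was divided by the dim one or, if larger, by the dim array's lowest signal well above background.

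The rule for named genes took the 25 largest differences each way outside the interferon, fibroblast, mast cell and liver lists, with the brighter array at or above the median of probes above background and other probes of the same sign. It added at most 10 genes in each direction above background on 1 array, and members of 81 gene lists and 43 families. Not all are reported, and some members of these lists are not reported here. The members and lists were chosen with earlier results of these data known. Neighbouring genes were sought as 3 or more past 2-fold in the same direction within 12 protein-coding genes. With 1 array a group there was no test. Alternatives used limma 3.58.1 in R 4.3.3; the rest used Python 3.11.15 with pandas 2.3.3, numpy 2.4.6 and matplotlib 3.10.9. The steps were tested on simulated data with spot error only, set smaller than the spread between probes and with no spread between animals. That test checks the calculation and does not show how often a 2-fold difference arises in such arrays. The number of arrays limits the precision.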

Additional observations from a re-analysis of the deposited data

Results flagged for a closer look

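S100a9, a calcium-binding protein of neutrophils and monocytes, differed from the control by at least 2-fold in opposite directions at the 2 doses. It lay at 2.36 in the control, 1.11 at 35 nmol and 3.37 at 70 nmol, a difference of -1.24 at the lower dose and 1.02 at the higher. Whether the doses differ was not tested, for want of replicates. Genes of the liver list that did the same are not repeated here.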

How the results depend on the processing

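Normexp background correction gave 83 genes at least 2-fold higher and 46 lower, of which 83 and 44 were also past 2-fold in the main setting. Scaling on spike-in RNA gave 88 and 405. The looser filter on dim probes gave 444 and 763, and the stricter one 119 and 56. Thresholds of 1.5-fold and 3-fold gave 697 and 482, and 50 and 23. Quantile and cyclic loess normalization, scaling on the median of probes above background, the deposited value table, averaging a gene's probes and, chosen after seeing the data, counts without 6 lists of other groups stayed within 1.5 times of the main counts of 205 and 137. Of 146 single genes past 2-fold, none changed sign in any of these settings where it was measured, though 80 kept 2-fold with normexp and 104 with spike-in scaling. These genes were chosen for being past 2-fold. The filters leave a difference unchanged, and the scalings and the deposited table shift all genes alike. Those settings could hardly turn a sign, so the lack of sign changes there is no support for the differences. List medians, less the median of all genes, changed sign in at least 1 setting for 26 of 81 lists. In 21 of these the main value was within 0.16, the median spread between probes of a gene. For the other 5, with the stricter filter the values were 0.10 for hepatocyte, 0.42 for neutrophil, -0.25 for mesothelial, -0.17 for growth factor and 0.01 (0.0063) for Wnt and Notch genes. With the looser filter they were 0.042 for neutrophil and -0.14 for growth factor genes. The cause was not tested, beyond the smaller or larger number of genes that each filter leaves. No paired analysis was possible because each group has 1 array. Signal near background limits the dimmest genes, whose differences are uncertain in size.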
